A study of Mus musculus with 2 samples.

Results

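Histone genes, both replication-dependent and variant, were examined on arrays of B cells of NOD mice that did or did not carry a human AIRE transgene. Members were all probe sets whose platform gene symbol starts with one of the standard mouse histone prefixes, with the H2- genes of the MHC left out. This gave 49 of 45037 non-control probe sets, 30 for replication-dependent genes, 15 for replacement variants and 4 for germ line linker histones. The family was picked with its ratios already known, so that every histone value below is a description and carries no test. The members hold 60 distinct histone symbols of 19324 gene symbols on the array. Only 25 of the 49 carry 1 symbol, and these read 18 genes. The other 24 were assigned to several near-identical copies, among which the array does not tell.

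The mice were of the NOD background, an inbred strain that develops autoimmune diabetes, and were 8 weeks old. One group carried a transgene for human AIRE, a transcriptional regulator of thymic epithelium, driven by an MHC class II promoter, and the other group was non-transgenic NOD. Each group was 1 array of biotin-labelled cDNA from RNA of 2 mice, taken from B220-positive cells that lacked Thy1 and CD11c. With 1 array per group there is no replicate check, no error and no p-value, and precision is limited by this number of arrays.

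Histones package DNA into nucleosomes, each built of H2A, H2B, H3 and H4, and linker histones of the H1 class bind the DNA between them. Replication-dependent genes supply histones during S phase, and most of their mRNAs end in a stem-loop in place of a poly(A) tail, although some of these genes are also known to give polyadenylated transcripts. Replacement variants such as H2A.Z and the H3f3 proteins are encoded by polyadenylated mRNAs made throughout the cell cycle. In the mouse, most replication-dependent genes lie in a large cluster on chromosome 13, formerly named Hist1, and in a smaller cluster on chromosome 3, formerly named Hist2.

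The promoter windows of 4 genes are shown. Of these, 3 (H2bc18, H2ac19 and H1f2) were at least 2-fold higher by a probe set with their symbol alone. H1f2 was so by 1 of its 3 probe sets, and only under the reported scaling. The replacement variant gene H2az1, which differed little, is shown for contrast. Each window runs from 250 bases before to 50 bases after the annotated start, 5′ to 3′, from RefSeq on GRCm38.p6. Capitals mark the octamer motif ATTTGCAT, which H2B promoters are known for, the TATA motif TATAAA and the CCAAT motif, each searched on both strands.
H2bc18 (chr3:96269450-96269749, plus strand): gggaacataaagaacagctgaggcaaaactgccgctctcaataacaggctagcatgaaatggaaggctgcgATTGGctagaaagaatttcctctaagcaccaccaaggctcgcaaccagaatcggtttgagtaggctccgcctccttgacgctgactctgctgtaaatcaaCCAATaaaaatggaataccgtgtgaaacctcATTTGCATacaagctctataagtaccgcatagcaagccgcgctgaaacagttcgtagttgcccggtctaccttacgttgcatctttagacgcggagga
H2ac19 (chr3:96240325-96240624, minus strand): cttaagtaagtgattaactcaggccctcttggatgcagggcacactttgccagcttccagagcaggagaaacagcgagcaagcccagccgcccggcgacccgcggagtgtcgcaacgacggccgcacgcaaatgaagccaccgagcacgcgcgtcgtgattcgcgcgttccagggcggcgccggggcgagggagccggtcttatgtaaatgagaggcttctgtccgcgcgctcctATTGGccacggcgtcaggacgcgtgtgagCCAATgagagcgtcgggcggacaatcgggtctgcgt
H1f2 (chr13:23738557-23738856, plus strand): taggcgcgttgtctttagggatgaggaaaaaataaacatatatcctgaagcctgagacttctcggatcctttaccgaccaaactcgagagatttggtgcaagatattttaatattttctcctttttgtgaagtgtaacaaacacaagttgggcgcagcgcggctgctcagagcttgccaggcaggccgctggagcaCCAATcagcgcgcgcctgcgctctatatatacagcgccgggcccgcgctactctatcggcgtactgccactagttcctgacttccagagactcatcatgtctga
H2az1 (chr3:137864237-137864536, plus strand): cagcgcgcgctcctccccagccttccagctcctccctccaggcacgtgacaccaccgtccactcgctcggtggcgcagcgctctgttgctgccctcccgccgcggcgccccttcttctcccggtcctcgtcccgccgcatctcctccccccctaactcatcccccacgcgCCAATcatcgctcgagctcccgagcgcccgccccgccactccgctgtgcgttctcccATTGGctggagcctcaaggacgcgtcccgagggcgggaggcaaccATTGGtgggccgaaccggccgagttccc
H2bc18 holds 1 octamer and 2 CCAAT motifs, H2ac19 holds 2 CCAAT motifs, H1f2 holds 1 and H2az1 holds 3. Of the 60 histone symbols, 54 had a window in the table, 55 windows in all, and H2bc21 was not among them. The octamer was in 4 of 11 H2B windows (36.4%) and 4 of 12 H2A windows (33.3%), against 1.74% of all 32851 windows. TATAAA was in 25 of the 55 histone windows (45.5%), against 13.6% of all windows, and CCAAT was in 44 of 55 (80.0%), against 37.4%. CCAAT was in each of the 12 H2A, 11 H2B and 10 H3 windows, and in 3 of 11 H4 windows. The windows of H2ac19 and H2ac18 share a run of 219 identical bases, which shows how close the copies on chromosome 3 are. This run reaches the end of the H2ac19 window. The H2ac18 window goes on past the run and holds 1 TATAAA there. A TATA motif of H2ac19 beyond its window would not be counted. A motif match is a description of the letters only.

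Intensities below are linear and were scaled so that both arrays had the same median, ratios are log2 of transgenic over non-transgenic, and values under a floor of 25.1 were set to it. A probe set counted as above the filter when its higher value reached the pooled median of 98.8, and as at least 2-fold apart when it also passed that fold. Of all 45037 probe sets, 1130 were so higher on the transgenic array, or 2.51%, and 970 were lower, or 2.15%. The split was 53.8% higher after the alignment, 31.9% with the intensities as deposited, 44.8% after quantile normalization and 44.1% after loess. The median log2 ratio of the 23987 probe sets above the filter was 0.15, against -0.03 without the alignment. The probe set of the mouse Aire gene read 89.7 in transgenic and 86.9 in non-transgenic cells, both under the filter. Since the transgene is human, this probe set does not check the labels.

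Of the 49 histone probe sets, 10 were at least 2-fold higher in transgenic cells (20.4%, beside 2.51% of all probe sets) and 1 was at least 2-fold lower (beside 2.15%). Above the filter were 36, of which 32 had both values above it, and 13 lay below it on both arrays. The 10 higher probe sets all carried symbols classed as replication-dependent, namely 5 of H2B, 2 of H2A, 2 of H3 and 1 of H1. The lower one was of H1f10, classed as a replacement gene. The class was taken from the symbol alone, and 2 of the 10 were of H2bc21, known as the source of an H2B variant. The median log2 ratio was 0.78 over the 21 replication-dependent probe sets above the filter and 0.17 over the 15 replacement ones, beside 0.15 over all probe sets above it. Some of the 21 passed only through the array on which they were higher, and over all 30 replication-dependent probe sets the median was 0.29, beside 0.00 over all 45037. All 15 replacement probe sets lay above the filter on both arrays.

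**Figure D1:**
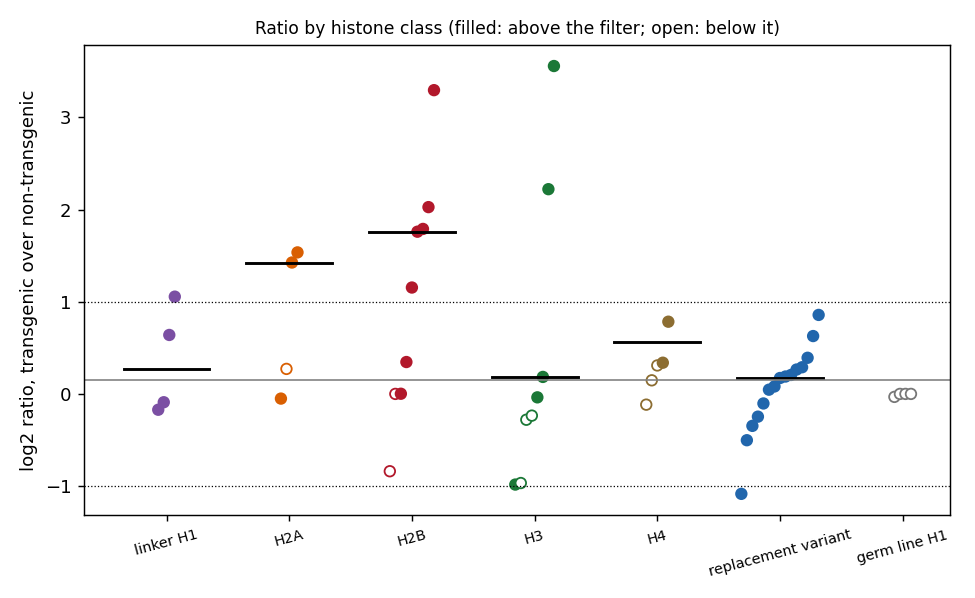
Log2 ratio of transgenic over non-transgenic intensity for each of the 49 histone probe sets, by class, with filled points above the filter, open points below it, black bars at the class median of filled points, dotted lines at 2-fold and a grey line at the array-wide median of 0.15. The 5 H2B, 2 H2A, 2 H3 and 1 H1 probe sets past 2-fold stand above the upper dotted line, and only H1f10, among the replacement variants, is below the lower one.

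The H2B class, whose proteins pair with H2A in the nucleosome, held the most higher probe sets. H2bc21 is a core H2B gene known in mouse olfactory neurons as the source of an H2B variant. A pair of probe sets carry its symbol alone. The first, 1447854_s_at, stood at 2983 in transgenic against 304 in non-transgenic cells (log2 ratio 3.30), rank 5 from the top among the 23987 ratios. The second, 1455095_at, stood at 500.2 in transgenic against 148 in non-transgenic cells (1.76, 3.39-fold). Both were therefore higher, by sizes that differed between them, and the sequence that each probes was not compared here. The first has the suffix _s_at, counted here as a shared kind of probe set, so it may also read other genes.

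H2bc18, a neighbour of H2bc21 in the chromosome 3 cluster whose promoter is printed above, stood at 536 in transgenic against 131 in non-transgenic cells (2.03, 4.07-fold). The probe set 1418072_at is assigned to H2bc8, H2bc6 and H2bc4, 3 H2B genes of chromosome 13, and the transcript it was designed on is now that of H2bc4. It stood at 794 in transgenic against 229.7 in non-transgenic cells (1.79, 3.46-fold). Of the other probe sets with these 3 symbols, 1445565_at was also higher, at 126.5 in transgenic against 56.8 in non-transgenic cells (1.15), while 1440330_at lay under the floor on both arrays.

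The remaining H2B probe sets differed little or were dim. The one shared by 11 symbols, 1452540_a_at, stood at 1450.5 in transgenic and 1141 in non-transgenic cells (0.35). H2bc22 alone stood at 117 on each array (0.00). A probe set shared by 6 symbols, 1425398_at, was below the filter at 17.7 in transgenic and 44.9 in non-transgenic cells.

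H2A probe sets ran from well above 2-fold to no difference. H2ac19, a core H2A gene of chromosome 3, stood at 2086 in transgenic against 719.7 in non-transgenic cells by 1418367_x_at (1.54, 2.90-fold). By 1418366_at it stood at 1341 in transgenic against 499 in non-transgenic cells (1.43, 2.69-fold). The H2ac19 ratios thus lay close together, although both probe sets were designed on the same sequence record and may also read the near-identical H2ac18. The probe set 1438815_at, assigned to both genes, was below the filter at 71.0 in transgenic and 58.8 in non-transgenic cells (0.27). In contrast, 1438009_at, shared by 10 H2A genes of chromosome 13, stood at 11833 in transgenic and 12257 in non-transgenic cells (-0.05).

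**Figure D2:**
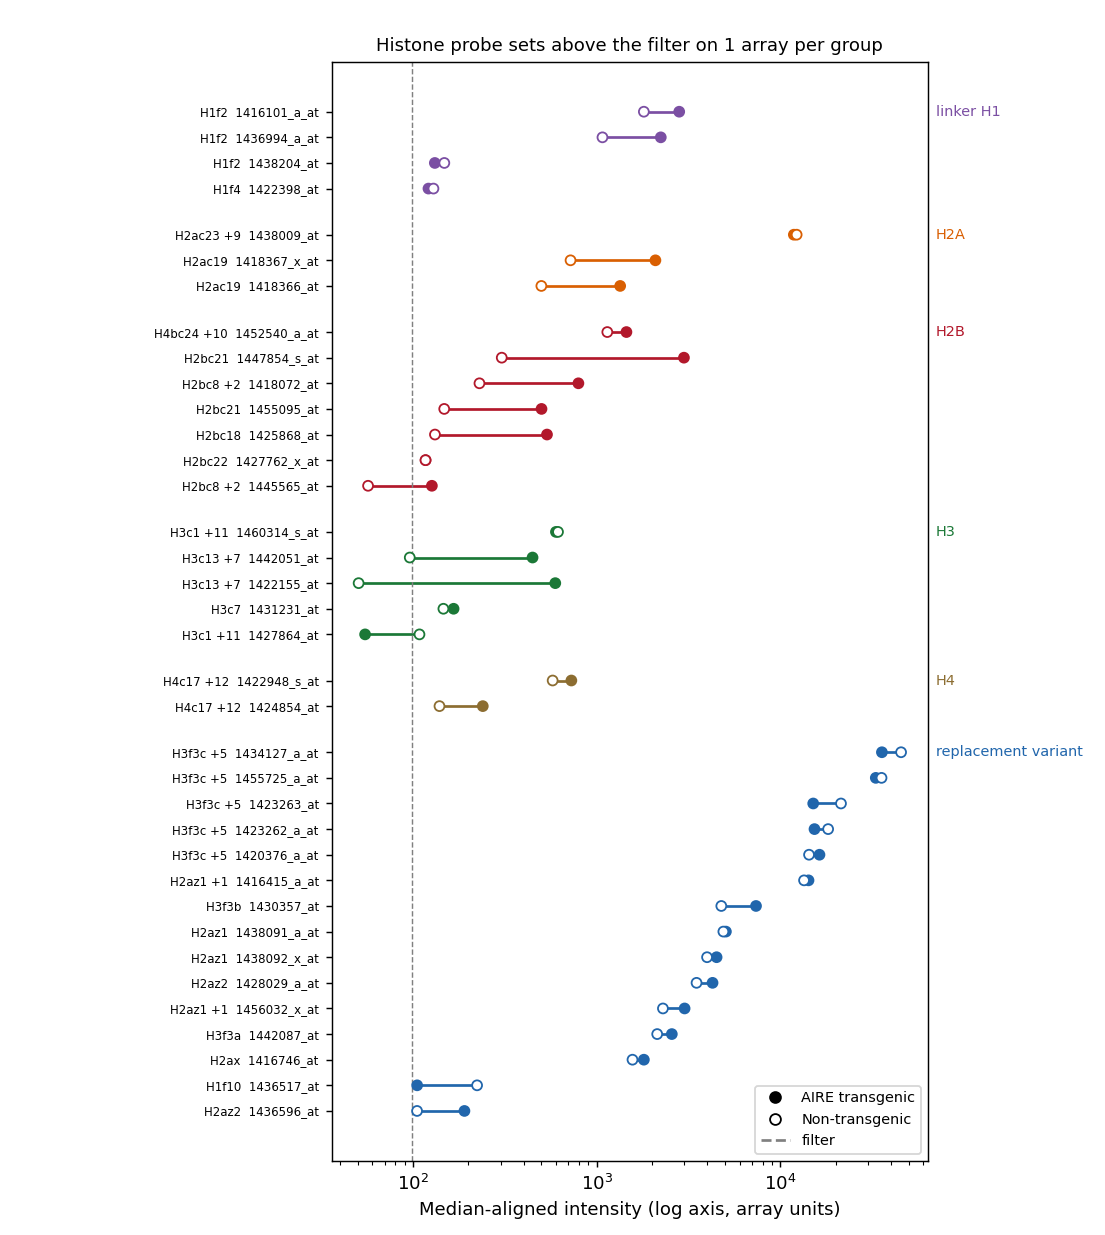
Median-aligned intensity, on a log axis, of the 36 histone probe sets above the filter, with filled points for the transgenic and open points for the non-transgenic array, grouped by class and labelled by first symbol, number of further symbols and probe set. The widest gaps are those of an H3 probe set shared by 8 symbols and of H2bc21 (2983 and 304), and among the replacement variants only H1f10 (105 and 223) is 2-fold apart.

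H3, the core histone whose tail carries many of the marks of active and silent chromatin, had the largest ratio of all members. The probe set 1422155_at, assigned to 8 H3 genes of both clusters, stood at 594 in transgenic against 50.5 in non-transgenic cells (3.56, 11.8-fold), rank 3 from the top. A second probe set with the same 8 symbols, 1442051_at, stood at 447 in transgenic against 95.9 in non-transgenic cells (2.22, 4.66-fold). Both non-transgenic values lay under the filter, so that the sizes of these ratios are uncertain. The sequence record of 1442051_at is a RefSeq synonym of H3c14, an H3 gene of the chromosome 3 cluster.

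Probe sets shared by 12 H3 symbols were not higher. Of these, 1460314_s_at stood at 599 in transgenic and 615 in non-transgenic cells (-0.04). The transcript it was designed on is now that of H3c14, the gene also named for the higher 1442051_at. Probe sets tied to H3c14 by their design thus differed in their ratios. The dimmer 1427864_at stood at 54.8 in transgenic and 108 in non-transgenic cells (-0.98), just inside 2-fold. H3c7 stood at 166 in transgenic and 146 in non-transgenic cells (0.18), and the probe sets of H3c4, H3c11 and the pair H3c10 and H3c2 were below the filter.

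H4, which pairs with H3 and is encoded by many copies of identical protein, had no probe set 2-fold apart. All 5 of its probe sets carry the same 13 symbols, and 3 of them were below the filter. The others stood at 727 in transgenic and 575 in non-transgenic cells (0.34, 1422948_s_at) and at 239.5 in transgenic and 139 in non-transgenic cells (0.78, 1424854_at). Of the 10 members designed on a transcript in the RefSeq table, 2 are now transcripts of a gene outside their own symbols. These are 1422948_s_at and the dim 1422947_at, given as H4 by the platform and designed on a transcript that RefSeq now names H3c1, so their class is uncertain.

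Among replication-dependent linker histones, H1f2, the gene of histone H1.2, differed between its 3 probe sets. By 1436994_a_at it stood at 2232 in transgenic against 1074 in non-transgenic cells (1.06, 2.08-fold). By 1416101_a_at it stood at 2811 in transgenic and 1805 in non-transgenic cells (0.64), and by 1438204_at at 131 in transgenic and 148 in non-transgenic cells (-0.17). The dimmest thus had the opposite sign, and the first was past 2-fold only after the median alignment, at log2 ratios of 0.84 to 0.91 under the other 4 scalings. H1f4 stood at 121 in transgenic and 129 in non-transgenic cells (-0.09). The 4 germ line probe sets, of H1f6, H1f7 and H1f8, read at most 7.75 in transgenic and 25.7 in non-transgenic cells, below the filter throughout.

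**Figure D3:**
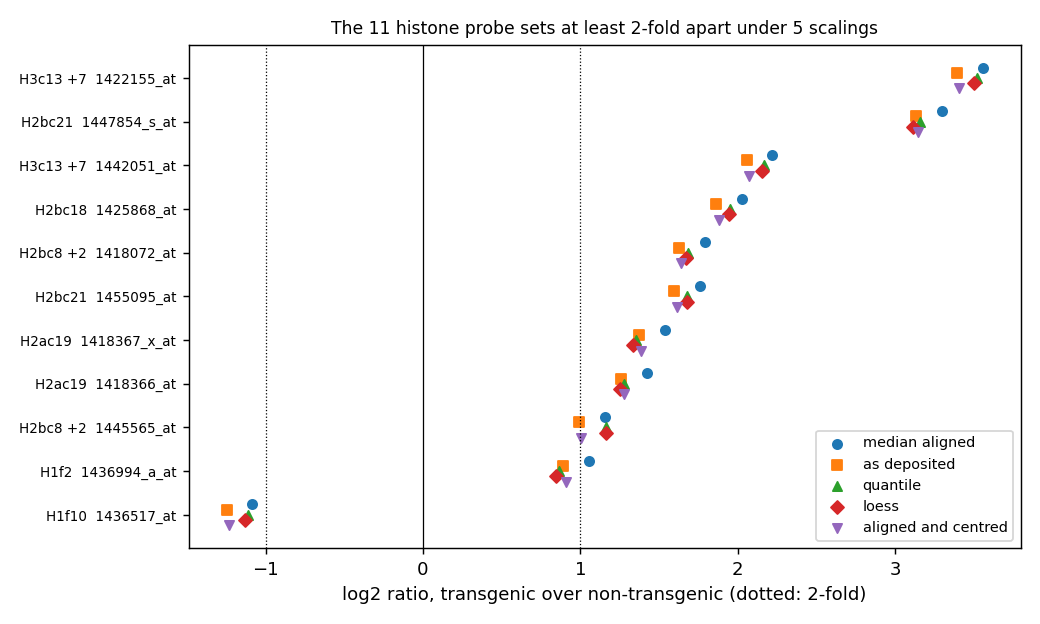
Log2 ratio of the 11 histone probe sets at least 2-fold apart under 5 scalings of the arrays, with dotted lines at 2-fold. Each kept its sign under all 5, H1f2 was under 2-fold under 4 of them, and the 1445565_at probe set of H2bc8 and 2 further genes was at 0.99 with the intensities as deposited.

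A pair of features that did not choose the members divided the replication-dependent probe sets, and both were picked after the values were seen. Beside the counts below, 2.51% of all probe sets were at least 2-fold higher. By position, 5 of the 6 probe sets whose symbols all lie in the chromosome 3 cluster were so higher. They were those of H2bc21, H2bc18 and H2ac19. With symbols in the chromosome 13 cluster alone, 3 of 15 were higher. Of the 9 probe sets with symbols of several clusters, 2 were higher. By sharing, 6 of 13 probe sets with 1 symbol and 4 of 8 with 2 to 9 symbols were higher. With 10 or more symbols 0 of 9 were, which is near the share of all probe sets. Of the 4 higher probe sets with 2 to 9 symbols, 3 had a non-transgenic value under the filter. Over all probe sets, dim ones included, the median log2 ratio was 0.64 with 1 symbol, 0.71 with 2 to 9 and 0.15 with 10 or more. These counts overlap, since the chromosome 3 probe sets mostly carry 1 symbol, and probe sets of 1 gene are not independent.

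Replacement variants were near the array-wide median ratio. H2az1 and H2az2, which encode the H2A.Z proteins found at promoters, had 6 probe sets with ratios from 0.05 to 0.86. The H2az1 probe set of highest level, 1416415_a_at, which is shared with a Gm-numbered gene, stood at 14224 in transgenic and 13448 in non-transgenic cells (0.08). H2az2 stood at 4269.7 in transgenic and 3494 in non-transgenic cells (0.29), and by its dim probe set at 190.3 in transgenic and 105 in non-transgenic cells (0.86).

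H3f3a and H3f3b, which encode the same replacement H3 protein, were read by 7 probe sets with ratios from -0.50 to 0.63. The 5 shared between them and other copies had a median of -0.25, and the one of highest level stood at 35698 in transgenic and 45396 in non-transgenic cells (-0.35). H3f3b alone stood at 7364 in transgenic and 4766 in non-transgenic cells (0.63), and H3f3a alone at 2562 in transgenic and 2133 in non-transgenic cells (0.26). The gene-specific probe sets and 1 of the 5 shared ones were thus above 0, and the other 4 shared ones below it. H2ax, whose protein is phosphorylated at DNA breaks and whose mRNA is known both with and without a poly(A) tail, stood at 1805 in transgenic and 1565 in non-transgenic cells (0.21). H1f10, a linker histone variant, was the only replacement member 2-fold apart, at 105 in transgenic against 223 in non-transgenic cells (-1.08, 2.12-fold lower), close to the filter on the transgenic array.

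**Figure D4:**
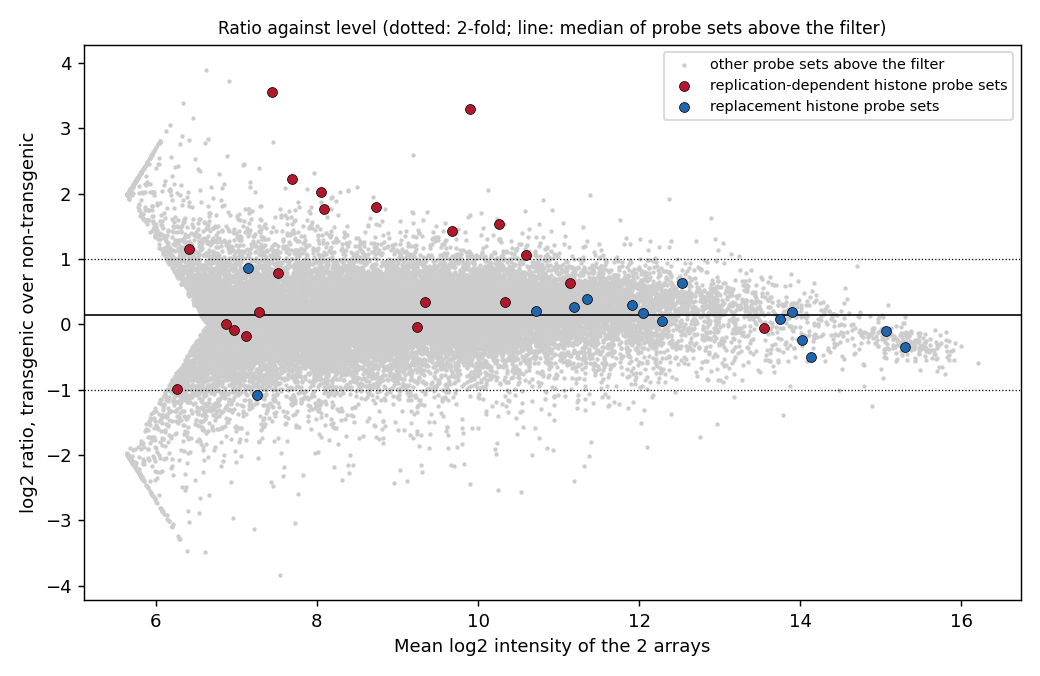
Log2 ratio of transgenic over non-transgenic intensity against the mean log2 intensity of the 2 arrays for probe sets above the filter, with other probe sets in grey, replication-dependent histones in red and replacement histones in blue. The highest red points, at ratios of 3.56 and 3.30, hold ranks 3 and 5 of 23987, whereas the blue points lie between -1.08 and 0.86.

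Histone genes whose symbols fall outside the prefixes included another core gene, H2aw. It stood at 1027 in transgenic against 512 in non-transgenic cells (2.01-fold) by one probe set and at 167 in transgenic and 135 in non-transgenic cells (0.31) by the other, and it was the only 1 of 4 such genes above the filter to reach 2-fold. It did so only after the median alignment, and its log2 ratio was 0.84 to 0.87 under the other 4 scalings. The list of histone mRNA processing genes had 0 of 37 probe sets 2-fold apart, beside 2.51% of all probe sets higher and 2.15% lower. Over the 33 above the filter the list had a median of 0.31. In it Slbp, which binds the stem-loop of histone mRNAs, stood at 4867 in transgenic and 3891 in non-transgenic cells (0.32) by one probe set and at 206 in transgenic and 248 in non-transgenic cells (-0.26) by another. A further Slbp probe set was below the filter, at 9.55 in transgenic and 68.1 in non-transgenic cells. Cpsf3, the nuclease that cuts the 3′ ends of histone mRNAs, stood at 4143 in transgenic and 2753 in non-transgenic cells (0.59). By another probe set Cpsf3 stood at 2846 in transgenic and 2085 in non-transgenic cells (0.45), and a further one lay under the floor on both arrays.

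Histone chaperones had 2 of 64 probe sets at least 2-fold higher (3.12%, beside 2.51% of all probe sets), none lower and a median of 0.14 over 56 above the filter. Both belonged to Anp32e, a chaperone that removes H2A.Z from chromatin. It stood at 6956 in transgenic against 2885 in non-transgenic cells (1.27) and at 6036 in transgenic against 2001 in non-transgenic cells (1.59). S phase genes had 1 of 59 probe sets at least 2-fold higher and 1 lower (1.69% each, beside 2.51% and 2.15% of all probe sets), and a median of -0.14 over 46 above the filter. The higher one was of E2f1, a transcription factor of the S phase entry, at 204 in transgenic against 98.3 in non-transgenic cells (1.05, and 0.89 to 1.05 over the 5 scalings), with its other probe set above the filter at -0.27. The lower one was of the thymidine kinase gene Tk1, at 355 in transgenic against 755 in non-transgenic cells (-1.09). Thus S phase genes and replication-dependent histones did not share a direction by their medians.

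Malat1 and 18S ribosomal RNA, which lack a poly(A) tail, were higher in transgenic cells too. Malat1, a nuclear long non-coding RNA whose end is cut without polyadenylation, was the only gene of its list with a probe set. Its 7 probe sets had a median of 1.18 and a range of 0.68 to 1.39. At least 2-fold higher were 4 of them, beside 2.51% of all probe sets. Of these 4, 1 was under 2-fold after quantile normalization (0.97) and loess (0.96). The 3 control probe sets of 18S ribosomal RNA stood at 355, 258 and 268 in transgenic against 59.8, 25.8 and 4.36 in non-transgenic cells, and since all 3 non-transgenic values lay under the filter no ratio is given. The part of this difference between the arrays in the histone ratios was not tested. Transcripts with and without a tail are not told apart by these probe sets, and in RNA pooled from sorted cells neither are fewer cells of a type and less RNA per cell.

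**Figure D5:**
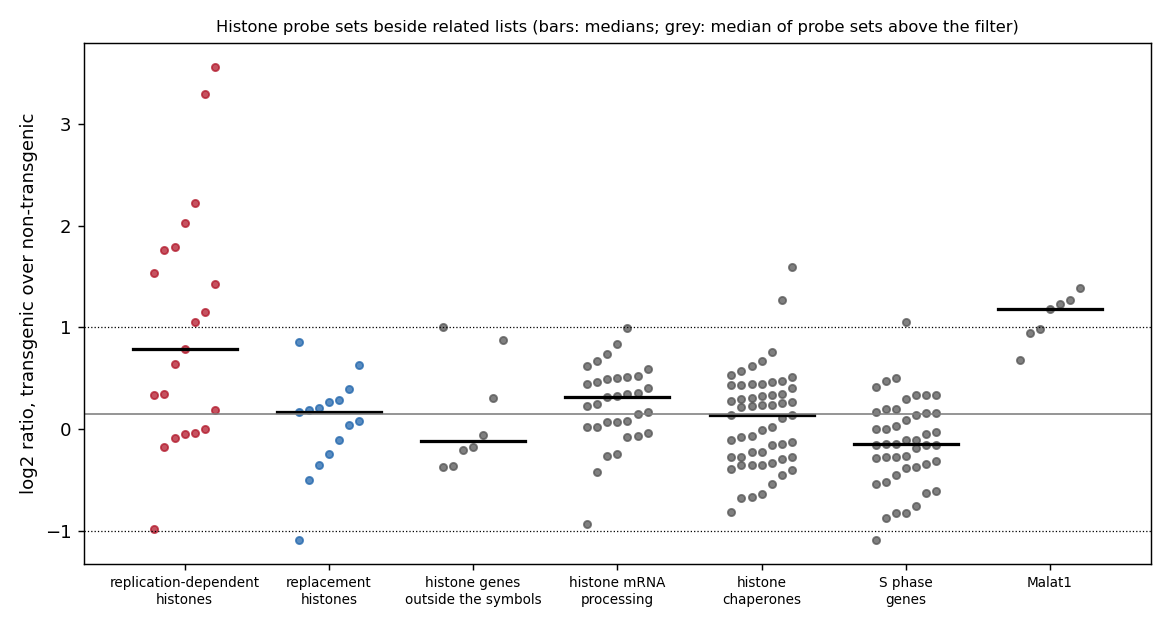
Log2 ratio of transgenic over non-transgenic intensity of histone probe sets above the filter beside lists of related genes and Malat1, with black bars at medians, dotted lines at 2-fold and a grey line at the array-wide median. Of the groups plotted, Malat1 (1.18) and the replication-dependent histones (0.78) have the highest medians and S phase genes (-0.14) the lowest.

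Marker lists were read for the sorted B cells and for other cells that the sort could hold, beside the 2.51% of all probe sets that were higher and the 2.15% that were lower. All 14 probe sets of 7 B cell marker genes, Cd79a and Ms4a1 among them, were above the filter and 3 were at least 2-fold lower, with summed intensities of 131493 in transgenic and 206738 in non-transgenic cells. Of 7 probe sets of B cell progenitor markers, 4 were at least 2-fold higher, with sums of 932 in transgenic and 494 in non-transgenic cells and none at the floor on both. These 4, of Dntt, Vpreb1 and Rag1, passed the filter only through the transgenic array, and the other 3 had ratios below 0, namely -0.98 and -0.03 for Igll1 and -0.88 for a further, dim Dntt probe set. Of 8 natural killer cell probe sets 2 were higher, 1 of them only after the median alignment, with sums of 7447 in transgenic and 4709.9 in non-transgenic cells and none at the floor on both. Myeloid markers had 1 of 12 probe sets higher, with sums of 21141 in transgenic and 19449 in non-transgenic cells. That one, of Mpo, stood at 106 in transgenic against 50.7 in non-transgenic cells. Its log2 ratio was under 2-fold as deposited (0.90) and after centring (0.92). T cell markers had 1 of 13 higher and 1 lower (2057 in transgenic, 1987 in non-transgenic cells), and plasma cell markers 1 of 10 lower (37041 in transgenic, 36900.2 in non-transgenic cells). The higher T cell probe set, of Cd4, stood at 155 in transgenic against 38.4 in non-transgenic cells. The Cd4 and Mpo probe sets thus passed the filter only through the transgenic array. Dendritic cell and erythroid markers had 0 of 7 apart each, with sums of 2192 and 213 in transgenic and 2000.2 and 327 in non-transgenic cells, and 3 erythroid probe sets were at the floor on both arrays. The part of these cells in the histone ratios was not tested.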

How the data were processed

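RNA of B cells of 1 AIRE transgenic and 1 non-transgenic sample was measured on an Affymetrix mouse array, per the labels and the series' design text. The deposited values are linear intensities, 1 per probe set. Software, background step and build are not given in the sources used here. These deposited intensities ranged from 0.1 to 98167, with medians of 93.1 in transgenic and 104.3 in non-transgenic cells, and the mean after trimming the highest and lowest 2% was 500.0 on both, so they appear to have been scaled to a common target. The scale is linear and uncentred, and there is 1 channel.

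The 64 control probe sets were set aside, the arrays were aligned on their pooled median (factors 1.06 for the transgenic and 0.947 for the non-transgenic one), values were floored at the pooled 25th percentile and log2 ratios taken. The filter was the pooled median. Class and cluster came from platform symbols and from RefSeq names of GRCm38.p6, which held 65 of 66 Entrez identifiers of the members. Named were probe sets 2-fold apart, the 2 of highest level per class, further probe sets of those genes, and up to 4 genes past 2-fold or otherwise the 2 of highest level per related list; the remaining members were named because they complete a class. The members and lists were chosen with earlier results of these data known. The steps were tested on simulated arrays in which only bright probe sets were changed, each by more than 2-fold. The recovery of changes in dimmer probe sets or close to 2-fold was not simulated. Alternatives changed scaling, centring, floor, filter, fold and probe set choice. Python 3.11.15 was used with pandas 2.3.3, numpy 2.4.6, matplotlib 3.10.9, scipy 1.17.1 and statsmodels 0.14.6.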

Additional observations from a re-analysis of the deposited data

How the results depend on the processing

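With 1 array per group no alternative gives an error or a test, and the cause of each shift was not tested. The count of histone probe sets at least 2-fold higher, 10 by the reported settings, was 8 without scaling, 9 after quantile normalization, loess or centring, 10 with a floor at the 10th percentile, 7 with both values above the filter and 14 at 1.5-fold, and was 6 with the filter at the 75th percentile, 3 with 1 probe set per gene and 3 without shared probe sets. In the last 2 settings the number of histone probe sets was 18 and 16, and the 3 higher were of H2bc21, H2bc18 and H2ac19. Over all probe sets kept in those 2 settings, 477 and 827 were higher. Of all 45037 probe sets, 1130 were higher by the reported settings and with the lower floor. That count was 694 without scaling, 939 after quantile normalization, 923 after loess and 761 after centring. It was 542 with both values above the filter, 4112 at 1.5-fold and 308 with the filter at the 75th percentile. The count of lower histone probe sets, 1, was 2 without scaling, 2 after centring and 2 at 1.5-fold. It was 0 with the filter at the 75th percentile. Over all probe sets the lower count, 970, was 1481, 1344, 2525 and 218 in these 4 settings. The median log2 ratio of replication-dependent probe sets, 0.78, was 0.62 without scaling, 0.73 after quantile normalization, 0.72 after loess, 0.64 after centring, 1.06 with the filter at the 75th percentile, 0.64 with both values above the filter, 0.64 with 1 probe set per gene, 0.80 without shared probe sets and 0.29 with no filter. That of replacement probe sets, 0.17, was 0.0086 without scaling, 0.040 after quantile normalization, 0.010 after loess, 0.024 after centring, 0.24 with 1 probe set per gene and 0.26 without shared probe sets. Over 85 alternative values of the 11 probe sets 2-fold apart, 72 stayed past 2-fold in the same direction, 13 kept the direction but were under the fold or the filter, and 0 reversed. Among the 10 higher ones, 4 stayed past 2-fold and above the filter under every alternative that kept them. They were 1447854_s_at of H2bc21, both of H2ac19 and 1418072_at of H2bc8, H2bc6 and H2bc4. The ratios of 1455095_at of H2bc21, 1425868_at of H2bc18 and the H3 probe sets 1422155_at and 1442051_at also stayed past 2-fold throughout. These were lost only where a stricter filter left them out. Only 1436994_a_at of H1f2 and 1445565_at fell under 2-fold, and did so under other scalings. No paired analysis was possible because each group is 1 array. Signal over background limits the dim probe sets, since no detection calls were used.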
